A study of Homo sapiens with 40 samples.

Results

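Ribosome biogenesis genes were followed in the breast cancer line BT474 and its trastuzumab-resistant derivative BT474R, before and after stimulation with EGF or heregulin (HRG). The 40 genes encode nucleolar processing factors and RNA polymerase I components, and they were selected by exact gene name from the 44584 names in the deposited count table. BT474 is a HER2-positive line that responds to trastuzumab, and BT474R is a clone derived from it by growth in the antibody. Both lines were serum starved and then received fresh starvation medium with EGF at 50 ng/mL, with HRG at 10 ng/mL or with water alone, which served as vehicle. RNA was sequenced at T0, which is the end of starvation, and after 1, 12 and 24 h of each treatment, with 2 libraries in each of the 20 groups. BT474R stands here for 1 clone, so a difference between the lines cannot be told apart from a difference between clones.

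A ribosome is made largely in the nucleolus, where RNA polymerase I transcribes the ribosomal RNA precursor. Small nucleolar ribonucleoproteins (snoRNPs) guide its chemical modification, and separate sets of factors then fold, cut and export the small and the large subunit. Growth factor signalling raises this output in many cell types, and MYC, a transcription factor of growing cells, is known to bind many of these genes through the E-box sequence CACGTG. The 40 genes were grouped into 3 box C/D snoRNP proteins, 2 box H/ACA snoRNP proteins, 6 nucleolar proteins, 4 RNA polymerase I components, 11 small subunit factors and 14 large subunit factors.

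Levels are given as CPM (counts scaled to a common library size) with TMM scaling over all 40 libraries, in the order replicate 1 and replicate 2, and a gene is said to have risen or fallen where edgeR's quasi-likelihood test gave an adjusted p below 0.05 over all genes tested. Libraries held between 16794594 and 33387936 counts, and all 40 genes passed the filter in every fit, the lowest count of any of them being 113, for PPAN. The shares over all genes include genes with far fewer counts, which are harder to call. With vehicle at 12 h in BT474, 17585 genes had at least 20 counts over the 2 libraries, while 25146 were tested. Shares over genes of like depth were not taken. The names of 5 members recurred in a copy row with a number added, and the copy rows held 75.3% of the joint counts for RRN3, 48.5% for FBL, 23.0% for UTP4, 7.20% for BOP1 and 6.36% for NOC4L, so values for RRN3, FBL and UTP4 are less certain than the others. All 8 luminal epithelial markers were detected in every library, from 10.6 CPM at the lowest for GATA3 to between 5995 and 10547 CPM for ERBB2. Of the 8 fibroblast, endothelial and immune markers, COL1A1 (75.1 to 295 CPM), VWF (8.61 to 23.0 CPM) and CD68 (1.06 to 5.09 CPM) were present in every library, while DCN, PTPRC and CD3E never exceeded 2 counts, PECAM1 5 counts and COL3A1 19 counts. The libraries of HRG at 24 h in BT474R differed most from each other, with a median chi-square per gene of 2.56 against 0.455 from counting noise alone and 0.595 to 1.58 in the other 19 groups.

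In BT474, both ligands raised most ribosome biogenesis genes against vehicle by 12 h, and no member fell against vehicle at any time. Vehicle had itself moved down from T0, by a median log2 over the 40 genes of -0.11 at 12 h and -0.13 at 24 h. The mean rise above T0 was therefore smaller than the rise above vehicle at these times. At 12 h, 33 of the 40 genes rose with HRG and 24 rose with EGF, against 13.3% and 9.04% of all 25146 genes tested. At 24 h, 31 rose with HRG and 22 with EGF, against 12.5% and 9.71% of all genes. The changes were small. The median log2 fold change of the 40 genes was 0.31 with HRG and 0.21 with EGF at 12 h, and 0.29 and 0.17 at 24 h, beside medians between -0.03 and -0.02 over all genes. Both HRG libraries lay above both vehicle libraries for 39 of 40 genes at 12 h and for 37 at 24 h, beside 32.6% and 29.5% of all genes with the same order. For EGF this held for 35 genes at each time, beside 28.5% of all genes at 12 h and 25% at 24 h.

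**Figure D1:**
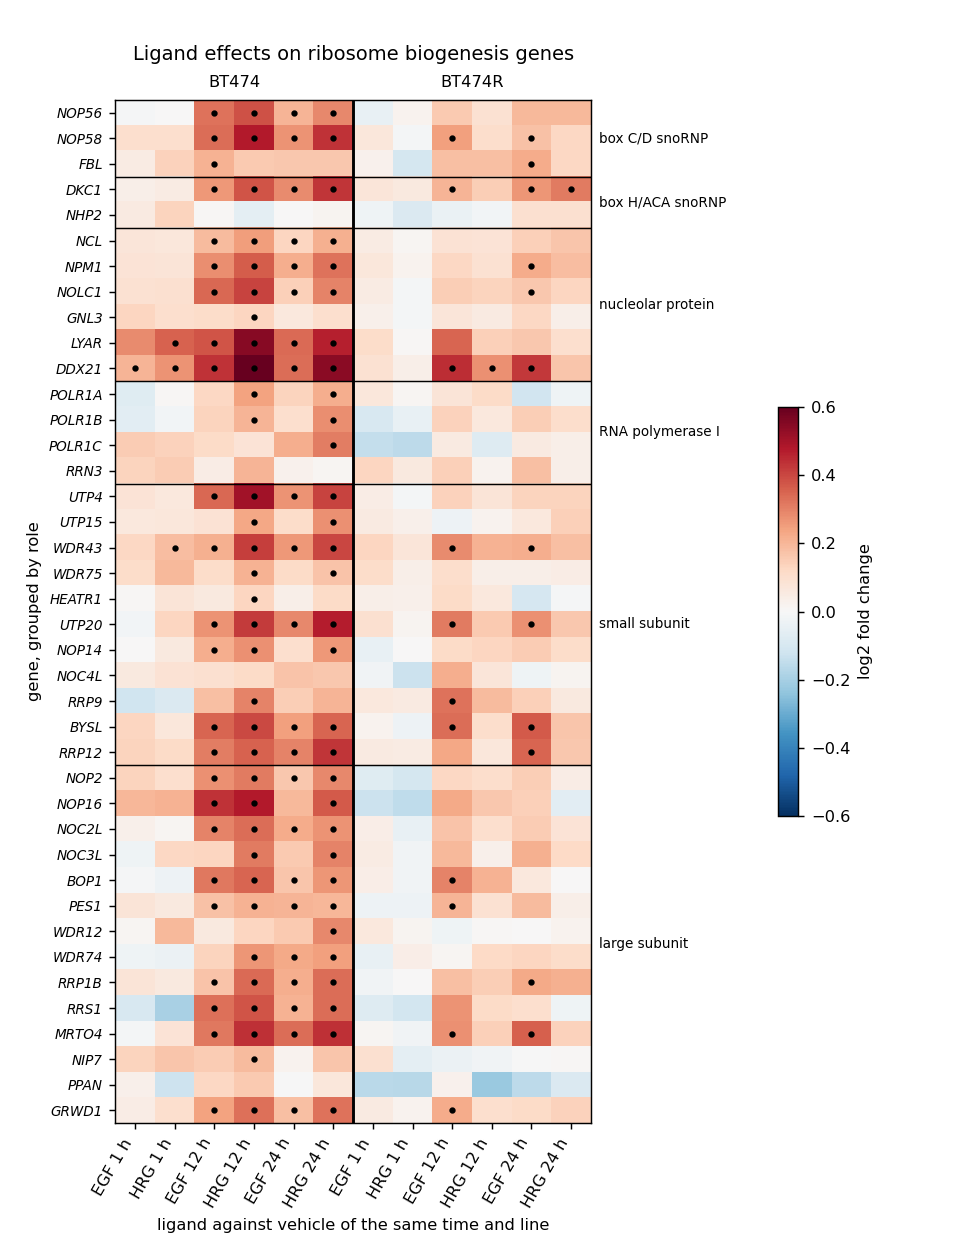
Log2 fold change of each gene (rows, grouped by role) for EGF or HRG against the vehicle of the same time and line (columns), with a dot where the adjusted p was below 0.05. In BT474 the 12 h and 24 h columns hold 24, 33, 22 and 31 dots, and in BT474R they hold 11, 1, 12 and 1.

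DDX21, a nucleolar RNA helicase, had the largest change with HRG. Its level in BT474 was 191 and 183 CPM with vehicle at 12 h, 251 and 260 CPM with EGF, and 288 and 297 CPM with HRG. No library of these 3 groups overlapped with another group. The log2 fold change against vehicle was 0.62 ± 0.04 (SE, n = 2 and 2) with HRG, a 1.53-fold change, with an adjusted p of 2.48e-14 in edgeR's quasi-likelihood test, and 0.43 ± 0.04 with EGF (adjusted p = 7.16e-10). LYAR, a nucleolar protein of growing cells, stood at 14.7 and 12.2 CPM with vehicle and at 20.8 and 19.6 CPM with HRG at 12 h, a log2 fold change of 0.55 ± 0.09 (adjusted p = 9.3e-06).

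The other nucleolar proteins moved less. NPM1, or nucleophosmin, a chaperone of ribosome assembly, had 262 and 249 CPM with vehicle at 12 h, 309 and 319 CPM with EGF and 339 and 332 CPM with HRG. NCL, or nucleolin, had 823 and 767 CPM with vehicle, 924 and 911 CPM with EGF and 959 and 974 CPM with HRG. For both genes the libraries with a ligand lay above those with vehicle, and the log2 fold changes were 0.28 ± 0.04 and 0.36 ± 0.04 for NPM1 and 0.19 ± 0.03 and 0.25 ± 0.03 for NCL. NOLC1, a snoRNP chaperone, rose by a log2 of 0.34 with EGF and 0.40 with HRG. GNL3, or nucleostemin, was called with HRG at 12 h, by 0.13 on the log2 scale, and had 0.11 with EGF.

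Among the snoRNP proteins, those of the box C/D particle, which guides methylation of ribosomal RNA, rose with EGF at 12 h in 3 of 3 cases. NOP58, a core protein of that particle, had 72.7 and 69.0 CPM with vehicle at 12 h, 93.2 and 87.2 CPM with EGF, and 101 CPM in both HRG libraries. Its log2 fold change was 0.48 ± 0.05 with HRG (adjusted p = 2e-10) and 0.33 ± 0.05 with EGF. NOP56, its partner, rose by 0.38 and 0.33. FBL, the methyltransferase of the particle, rose by 0.21 with EGF at 12 h, while its value of 0.16 with HRG did not pass (43.2 and 44.1 CPM with vehicle, 50.1 and 49.4 CPM with HRG). DKC1, the pseudouridine synthase of the box H/ACA particle, rose with both ligands at 12 h and 24 h, by a log2 between 0.26 and 0.43. NHP2, another protein of that particle, had values between -0.06 and 0.13 in the 6 ligand comparisons of BT474 and passed in none.

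The RNA polymerase I components rose with HRG in part. None of the 4 was called with EGF at 12 h or 24 h in edgeR, which gave an unadjusted p under 0.05 for 2 at each time, while DESeq2 called 1 at each, POLR1A, with log2 values of 0.13 in both. With HRG, POLR1A, the largest catalytic subunit, had 190 and 199 CPM at 12 h against 158 and 165 CPM with vehicle, a log2 fold change of 0.24. POLR1B, which forms the catalytic centre with it, had 65.4 and 68.6 CPM against 58.1 and 55.8 CPM, a log2 fold change of 0.21. Both also rose with HRG at 24 h, by 0.22 and 0.28. POLR1C, a subunit shared with RNA polymerase III, rose with HRG only at 24 h, where it had 23.1 and 26.7 CPM against 19.2 and 20.2 CPM, a log2 fold change of 0.31. RRN3, the initiation factor that links the enzyme to growth signals, had log2 values between 0.01 and 0.21 with the ligands in BT474 and passed at no time.

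Of the 11 small subunit factors, 10 rose with HRG and 6 with EGF at 12 h. UTP4, which belongs to the subcomplex that loads first onto the nascent precursor, had 52.3 and 48.7 CPM with vehicle, 65.9 and 63.9 CPM with EGF and 72.6 and 73.8 CPM with HRG. Its 3 groups did not overlap, and its log2 fold change was 0.50 ± 0.05 with HRG (adjusted p = 4.31e-10). WDR43 of the same subcomplex rose by 0.42 with HRG and 0.21 with EGF, while HEATR1, also of that subcomplex, rose by 0.13 with HRG. UTP20, a late component of the small subunit processome, rose by 0.42 at 12 h and 0.47 at 24 h with HRG. BYSL and RRP12, which act in the maturation and export of the small subunit, rose with both ligands at both times. NOC4L was the exception, with log2 values between 0.06 and 0.17 and no call.

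Of the 14 large subunit factors, 12 rose with HRG and 9 with EGF at 12 h. MRTO4, a factor that occupies the place of a ribosomal stalk protein during assembly, had 35.2 and 35.6 CPM with vehicle, 45.4 and 43.7 CPM with EGF and 47.6 and 50.4 CPM with HRG, so that the groups with a ligand lay above vehicle without overlap. NOP16 had 23.7 and 23.6 CPM with vehicle, 32.4 and 32.1 CPM with EGF and 33.3 and 33.9 CPM with HRG, a log2 fold change of 0.43 ± 0.08 with EGF (adjusted p = 0.000115) and 0.48 with HRG. BOP1, PES1 and WDR12 form a complex that is needed to process the large subunit RNA. BOP1 rose by 0.32 with EGF and 0.35 with HRG and PES1 by 0.17 and 0.21, while WDR12 had 0.06 and 0.13 and passed only with HRG at 24 h, with 0.29. PPAN had a log2 value of 0.16 with HRG at 12 h and passed in no comparison.

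Over the whole course 36 of the 40 genes rose in 1 or more of the 6 ligand comparisons in BT474, beside 19.2% of all genes tested. A set of 21 rose with both ligands at both 12 h and 24 h, beside 5.68% of all genes, and 29 rose with HRG at both times, beside 8.82%. At 12 h GNL3, POLR1A, POLR1B, UTP15, WDR75, HEATR1, RRP9, NOC3L, WDR74 and NIP7 passed with HRG and did not pass with EGF, as did 4.95% of all genes. None of these 10 differed between HRG and EGF in edgeR's test of that difference, where the lowest adjusted p was 0.256, so they are not shown to respond to HRG alone. NHP2, RRN3, NOC4L and PPAN rose in no ligand comparison of either line.

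At 1 h the genes called were DDX21 with EGF and DDX21, LYAR and WDR43 with HRG, against 1.65% and 2.16% of all genes higher. DDX21 had 209 and 208 CPM with vehicle, 243 and 244 CPM with EGF and 251 and 255 CPM with HRG, log2 fold changes of 0.20 ± 0.04 and 0.27 ± 0.04. LYAR rose by 0.36 and WDR43 by 0.19 with HRG. Of the 40 genes, edgeR gave an unadjusted p under 0.05 for 11 with EGF and 14 with HRG. Both ligand libraries lay above both vehicle libraries for 22 genes with EGF and 26 with HRG, beside 26.8% and 22.7% of all genes. The median log2 fold changes were 0.06 and 0.08, so a small shift of more members at 1 h is not excluded. Without vehicle replicate 2, HRG replicate 1 or HRG replicate 2 of BT474 at 1 h, and likewise in 1 fit of both lines, only 1 gene was called with HRG at 1 h. At 24 h, 13 genes rose with EGF without vehicle replicate 2 and 14 without EGF replicate 2 of BT474, and 13 when only the libraries compared were fitted, in place of 22.

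MYC had its largest change at 1 h in BT474, where 1 of the 40 genes was called with EGF and 3 with HRG. Its level was 51.0 and 54.0 CPM with vehicle at 1 h, 105 CPM in both EGF libraries and 122 and 131 CPM with HRG, a 1.97-fold and a 2.39-fold change. At 12 h it had 33.3 and 31.7 CPM with vehicle, 38.6 and 39.7 CPM with EGF and a mean of 39.8 ± 0.22 CPM (SD, n = 2) with HRG, and the log2 fold changes had shrunk to 0.25 ± 0.06 and 0.26 ± 0.06. At 24 h they were -0.05 ± 0.06 and -0.01 ± 0.06 and neither passed the test. The mean log2 CPM of the 40 genes was 5.66 and 5.69 with vehicle and 5.75 and 5.79 with HRG at 1 h, 5.61 and 5.57 against 5.91 and 5.93 at 12 h, and 5.64 and 5.58 against 5.90 and 5.92 at 24 h. Whether the late rise of these genes depends on the early rise of MYC was not tested.

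**Figure D2:**
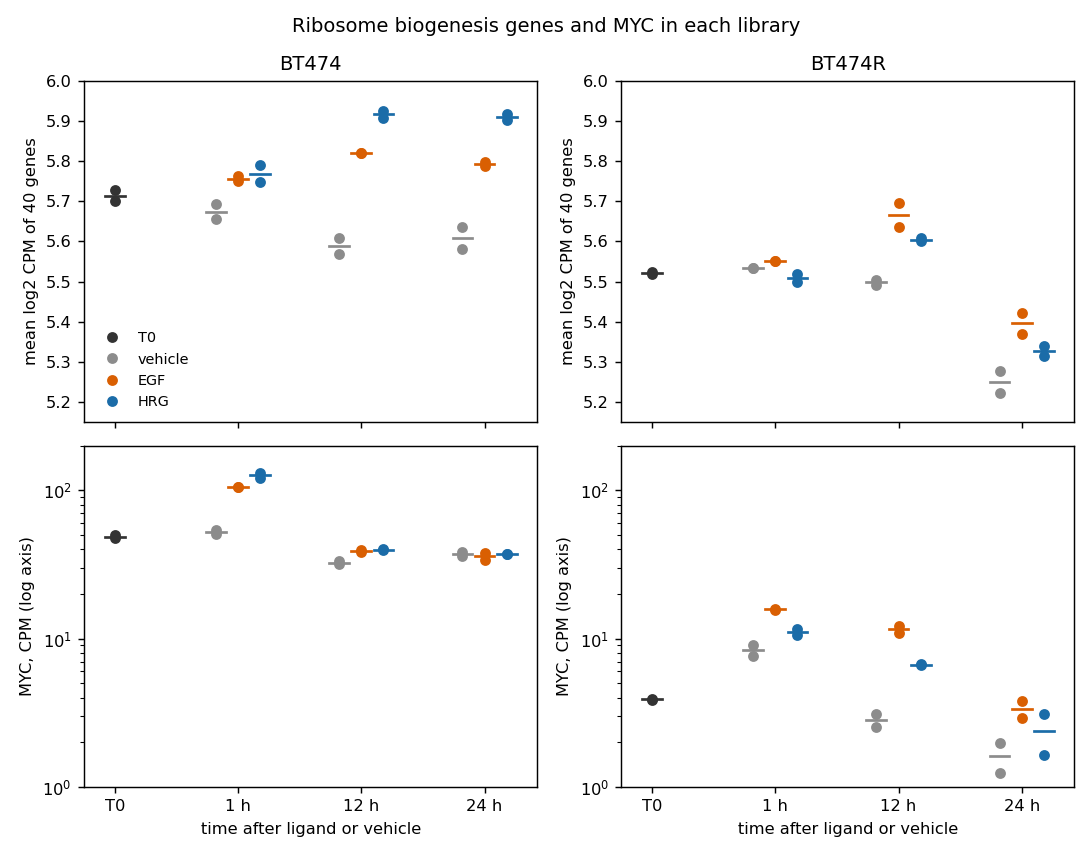
Mean log2 CPM of the 40 genes (top) and CPM of MYC on a log axis (bottom) in each library against time, with BT474 on the left, BT474R on the right and a bar at the mean of the 2 libraries. In BT474 the HRG libraries reach 5.91 and 5.93 for the 40 genes at 12 h, while MYC is highest at 1 h.

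The promoters of 34 members were found in the RefSeq windows of build GRCh38.p14, from 250 bases before to 50 bases after the annotated start, and 14 of these windows (41.2%) held the E-box CACGTG, which is its own reverse complement and was searched for exactly. The same motif was found in 8.77% of all 27305 genes with such a window and in 11.2% of the tested genes that had one. Among the cytosolic ribosomal proteins 4 of 63 windows (6.35%) held it. Outside the members, 17 of 41 windows of other small subunit factors (41.5%) and 15 of 45 of other large subunit factors (33.3%) held it. It was also found in 2 of 8 windows of other snoRNP factors (25%) and 1 of 10 of other RNA polymerase I genes (10%). A high share was therefore not particular to the members. Among the members, 6 of 10 small subunit factors, 3 of 5 nucleolar proteins and 4 of 11 large subunit factors held it. So did 1 of 2 box C/D proteins, but none of the 4 RNA polymerase I genes or the 2 box H/ACA genes. Motifs with fewer than 12 bases of the window on either side were not positioned. Among those positioned, the motif lay within 50 bases of the start in 12 genes and 64 bases before it in LYAR. RRP1B, RRP12, NOLC1, BOP1, NOP58 and RRS1 had no window in the table.

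Among the genes with a positioned motif, the 6 with the largest HRG response at 12 h in BT474 are shown with the bases around it. The sequences are written from 5′ to 3′ on the strand of the gene, with the E-box in capitals. They lie at chr10:68956604-68956633 (DDX21, plus strand), chr4:4290068-4290097 (LYAR, minus strand), chr16:69132621-69132650 (UTP4, plus strand), chr1:19251807-19251836 (MRTO4, plus strand), chr12:101280083-101280112 (UTP20, plus strand) and chr2:28894658-28894687 (WDR43, plus strand) of GRCh38.p14.
DDX21: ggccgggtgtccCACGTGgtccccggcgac
LYAR: cggcggcgagtcCACGTGctccccgcggcc
UTP4: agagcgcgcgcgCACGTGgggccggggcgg
MRTO4: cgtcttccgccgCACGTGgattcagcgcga
UTP20: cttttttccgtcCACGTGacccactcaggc
WDR43: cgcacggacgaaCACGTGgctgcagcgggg

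The motif starts 31 bases before the annotated start in DDX21, 64 before in LYAR, 16 before in UTP4 and 10 before in UTP20. In MRTO4 and WDR43 it starts 15 and 4 bases after it. In BT474 at 12 h, 13 of the 14 genes with the motif rose with HRG, with a median log2 fold change of 0.35, and 14 of the 20 without it rose, with a median of 0.22. The medians with EGF were 0.25 and 0.13 in BT474 and 0.24 and 0.11 in BT474R, and those with HRG in BT474R were 0.13 and 0.07, with 1 and 0 genes called. For BT474R against BT474 at T0, the genes with the motif had a median of -0.15 and those without it -0.25. Differences between the genes with and without the motif were not tested. No binding was measured in these libraries, and a match in the letters is not a bound site.

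In BT474R, EGF raised a set led by DDX21 and BYSL at both 12 h and 24 h, and no member fell. With HRG 1 gene passed at each of 12 h and 24 h, a count near the share of all genes that were higher. At 12 h, 11 of 40 rose with EGF and 1 with HRG, against 6.85% and 2.38% of the 24287 genes tested. At 24 h, 12 rose with EGF and 1 with HRG, against 9.95% and 1.89% of all genes. The medians over the 40 genes were 0.16 with EGF and 0.10 with HRG at 12 h, and 0.15 and 0.11 at 24 h. Both ligand libraries lay above both vehicle libraries for 33 genes with EGF and 27 with HRG at 12 h, beside 27.1% and 26.4% of all genes, and for 26 and 16 genes at 24 h, beside 26.7% and 15.7%. At 1 h no member was called with either ligand by edgeR or DESeq2, where edgeR gave an unadjusted p under 0.05 for 0 members with EGF and 1 with HRG, and 0.416% and 0.169% of all genes were higher.

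DDX21 again led. It had 169 and 174 CPM with vehicle, 231 and 237 CPM with EGF and 214 and 206 CPM with HRG at 12 h, with no overlap between the 3 groups. The log2 fold changes were 0.44 ± 0.05 with EGF (adjusted p = 8.22e-07) and 0.27 ± 0.05 with HRG (adjusted p = 0.00112). At 24 h its levels were 150 and 145 CPM with vehicle, 203 and 192 CPM with EGF and 168 and 159 CPM with HRG, and the value with EGF was 0.42 ± 0.05, while that with HRG, 0.17 ± 0.05, did not pass.

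Besides DDX21, 6 genes rose with EGF at both times in BT474R, namely NOP58, DKC1, WDR43, UTP20, BYSL and MRTO4, beside 4.93% of all genes. BYSL had 25.4 and 26.3 CPM with vehicle and 33.7 and 31.6 CPM with EGF at 12 h, a log2 fold change of 0.34 ± 0.07, and 0.37 ± 0.08 at 24 h. MRTO4 had 30.3 and 30.9 CPM with vehicle and 36.4 and 37.9 CPM with EGF at 12 h, and 24.7 and 24.3 CPM against 30.9 and 31.9 CPM at 24 h, log2 fold changes of 0.27 and 0.36. In all of these the libraries with EGF lay above those with vehicle. RRP9, a protein of the snoRNP that takes part in cutting the precursor, passed at 12 h (0.33 ± 0.09), and RRP12 at 24 h (0.35 ± 0.11).

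With HRG at 24 h the gene called was DKC1, at 83.1 and 99.6 CPM against 74.8 and 74.0 CPM with vehicle, a log2 fold change of 0.31 ± 0.06 (adjusted p = 0.01). The HRG libraries were above vehicle but differed from each other by more than the vehicle libraries did. The RNA polymerase I components passed with neither ligand at any time in BT474R in edgeR or DESeq2, and edgeR gave an unadjusted p under 0.05 for at most 2 of them in a comparison. POLR1A had 157 and 151 CPM with EGF and 172 and 161 CPM with vehicle at 24 h, and POLR1B 44.0 and 39.1 CPM against 39.5 and 35.3 CPM, log2 values of -0.11 and 0.15. NPM1 rose with EGF at 24 h only (202 and 208 CPM against 171 and 180 CPM, 0.22), as did FBL (0.22), while NCL, with values between 0.01 and 0.16, passed at no time.

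These counts depended on single libraries. The 11 genes with EGF at 12 h became 4 without vehicle replicate 1, 6 without vehicle replicate 2, 4 without EGF replicate 1 and 3 without EGF replicate 2 of BT474R, and 21 when only the libraries compared were fitted, and the 12 at 24 h became 7 without vehicle replicate 1, 5 without EGF replicate 1 and 6 with only the libraries compared. With HRG, 3 genes were called at 12 h by DESeq2 and in 1 fit of both lines, and at 24 h the count was 0 without vehicle replicate 1, 6 without HRG replicate 1 and 5 with DESeq2.

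MYC in BT474R was low, and its largest fold change came at 12 h. It had 9.09 and 7.68 CPM with vehicle at 1 h, 15.9 and 15.6 CPM with EGF and 11.6 and 10.6 CPM with HRG. At 12 h it had 2.53 and 3.10 CPM with vehicle, 12.1 and 11.0 CPM with EGF and 6.66 and 6.69 CPM with HRG, a 4.06-fold and a 2.32-fold change. At 24 h it had 1.23 and 1.98 CPM with vehicle, 2.92 and 3.78 CPM with EGF and 1.63 and 3.10 CPM with HRG, where the EGF value of 1.09 ± 0.25 (log2) passed and the HRG value of 0.60 ± 0.27 did not. At 12 h the fold changes of MYC stood beside medians of 0.16 and 0.10 in the 40 genes, and the MYC level with EGF in BT474R was below that with vehicle in BT474.

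The difference between the lines in the response was itself tested, as the ligand effect in BT474R minus that in BT474. With HRG at 12 h, 8 of 40 genes had a smaller effect in BT474R and none a larger one, where 4.07% of 24641 genes differed in either direction. UTP4 differed by -0.44 ± 0.08 on the log2 scale (adjusted p = 0.000723), from a log2 fold change of 0.50 in BT474 to 0.08 in BT474R. NOP58 differed by -0.38 ± 0.07 (adjusted p = 0.000833) and DDX21 by -0.36 ± 0.06 (adjusted p = 0.000363). MRTO4, NOP56, NPM1, NOLC1 and NOC2L followed with values between -0.31 and -0.25. At 24 h, 5 genes differed, all in the same direction (3.33% of all genes in either), namely DDX21 by -0.41, NOP58 by -0.34, MRTO4 by -0.33, UTP4 by -0.31 and POLR1A by -0.28. At 1 h no member differed with HRG in edgeR, which gave an unadjusted p under 0.05 for 8, and 1 did in DESeq2 (0.544% of all genes).

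**Figure D3:**
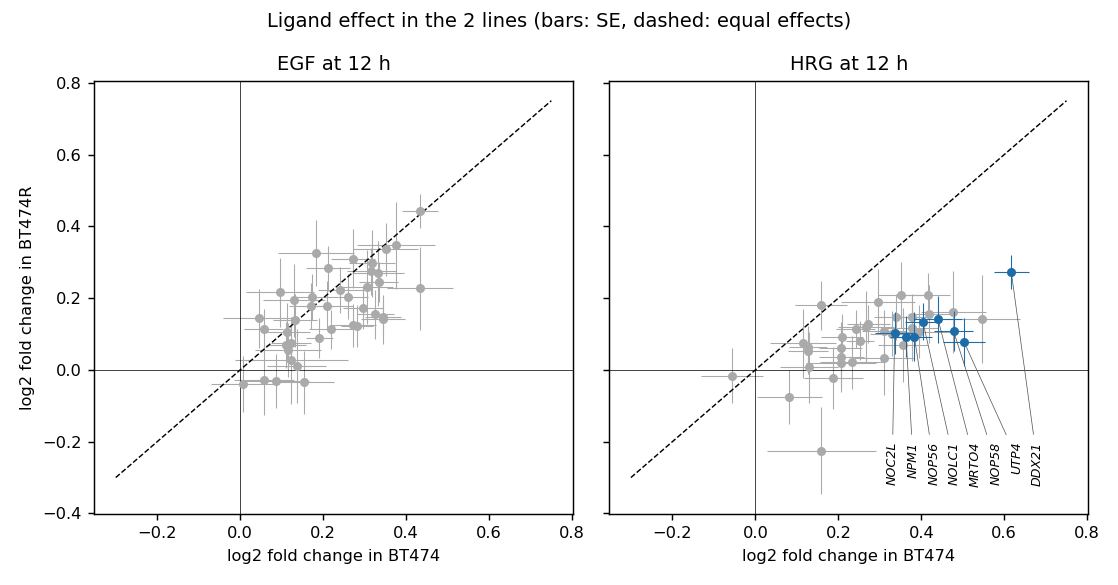
Log2 fold change against vehicle at 12 h in BT474R (vertical) against that in BT474 (horizontal) for each of the 40 genes, with EGF on the left and HRG on the right. Bars are standard errors, the dashed line marks equal effects, and the 8 coloured and named genes differed between the lines in the test of the difference.

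With EGF no member differed between the lines at any time in edgeR's test on all 40 libraries, while 3 differed at 12 h when only the libraries compared were fitted, and 1 differed at 24 h without BT474 EGF replicate 2 or BT474R vehicle replicate 2. The unadjusted p was under 0.05 for 4 members at 1 h, 4 at 12 h and 1 at 24 h, DESeq2 called 0, 0 and 1, and 0.138%, 1.96% and 4.01% of all genes differed. The differences of the 40 genes at 12 h lay between -0.22 and 0.13 on the log2 scale with a median standard error of 0.09. MYC differed in the opposite direction, with an effect that was larger in BT474R by 1.75 ± 0.17 with EGF and 0.94 ± 0.18 with HRG at 12 h, and by 1.14 ± 0.23 with EGF at 24 h, and smaller by -0.85 ± 0.14 with HRG at 1 h.

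The count of 8 with HRG at 12 h was 5 without BT474 vehicle replicate 1, 4 without BT474 vehicle replicate 2, 5 without BT474 HRG replicate 1, 3 without BT474R vehicle replicate 2, 5 without either BT474R HRG library, and 15 when only the libraries compared were fitted. The count of 5 at 24 h was 2 without BT474 vehicle replicate 2 or HRG replicate 1, 1 without BT474R vehicle replicate 1, 9 without BT474R vehicle replicate 2, 10 without BT474R HRG replicate 2, 8 with a replicate block and with DESeq2, and 0 when only the libraries compared were fitted. DDX21 passed without any of the libraries at both times, and UTP4 and NOP58 did so at 12 h.

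**Figure D4:**
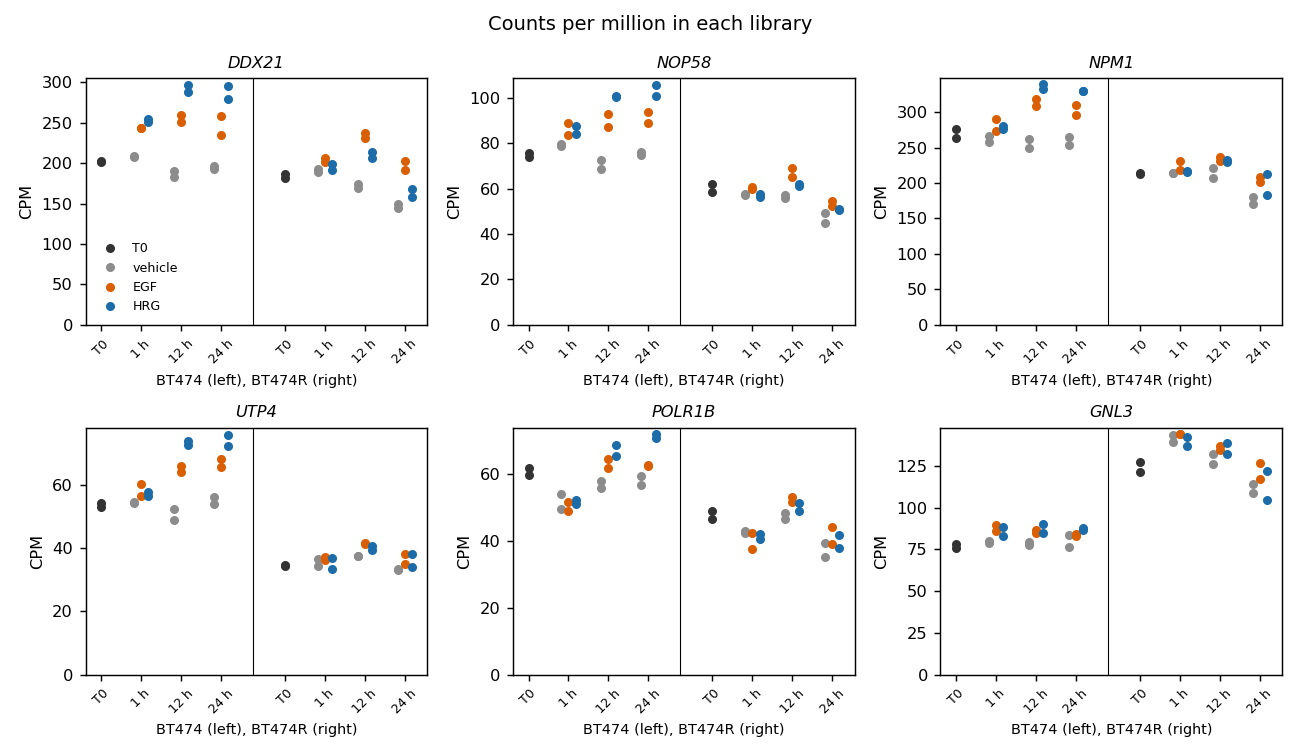
CPM of DDX21, NOP58, NPM1, UTP4, POLR1B and GNL3 in each library, with BT474 to the left and BT474R to the right of the vertical line in each panel and colours for T0, vehicle, EGF and HRG. UTP4 reaches 72.6 and 73.8 CPM with HRG at 12 h in BT474 and 40.8 and 39.3 CPM in BT474R, and GNL3 is higher in BT474R in every group.

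The ligands differed from each other in few of the genes. With HRG against EGF in BT474, DDX21 (0.18 ± 0.04) and WDR43 (0.21 ± 0.05) were higher at 12 h, where 2.17% of all genes differed, and DDX21 (0.21 ± 0.04) was higher at 24 h, where 0.768% did. The median over the 40 genes was 0.07 at 12 h and 0.11 at 24 h. In BT474R no member differed at 12 h in edgeR, which gave an unadjusted p under 0.05 for 3 and where 1.42% of all genes differed, and DESeq2 called 1. At 24 h DDX21 was lower with HRG than with EGF, by -0.26 ± 0.05 (5.18% of all genes), and MYC was lower with HRG at 12 h, by -0.81 ± 0.16. In BT474 the calls at 12 h fell to 0 without HRG replicate 2 or EGF replicate 1 and to 1 without the other library of either group, and at 24 h there were 0 without HRG replicate 1 and 6 without EGF replicate 2. In BT474R at 24 h there were 2 without HRG replicate 1 and 3 without HRG replicate 2, and when only the libraries compared were fitted the 3 counts became 8, 0 and 0.

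The effect of a ligand at 24 h did not differ from that at 12 h for any member in edgeR or DESeq2. In BT474 edgeR gave an unadjusted p under 0.05 for 2 members with EGF and 1 with HRG, and 0.517% and 2.5% of all genes differed. In BT474R it did so for 2 members with EGF and 0 with HRG, and 0.185% and 0.0288% of all genes differed. Without EGF replicate 2 at 24 h in BT474, 1 member differed.

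The vehicle groups show what the genes did without a ligand after the change of medium. In BT474R, 27 of 40 genes fell between T0 and 24 h of vehicle, with a median log2 fold change of -0.27, where 6.83% of all genes were lower. At 12 h no member was called in edgeR's fit of the 20 libraries of the line or in DESeq2, where edgeR gave an unadjusted p under 0.05 for 2 and 0.774% of all genes were lower. In 1 edgeR fit of both lines 1 member was called at 12 h, and 2 were when only the libraries compared were fitted. UTP20 had 74.5 and 80.2 CPM at T0, 70.5 and 67.7 CPM at 12 h and 56.4 and 49.6 CPM at 24 h, a log2 fold change of -0.54 ± 0.08 at 24 h (adjusted p = 0.00021). WDR75 had 46.7 and 49.8 CPM at T0 and 33.7 and 35.0 CPM at 24 h (-0.48 ± 0.09), and RRS1, which helps the large subunit take up its small RNA, had 28.4 and 28.1 CPM and then 22.1 and 18.3 CPM (-0.47 ± 0.10). In each of these the 24 h libraries lay below those of T0.

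The fall reached every role. It covered 9 of 11 small subunit factors, 7 of 14 large subunit factors, 5 of 6 nucleolar proteins, 3 of 4 RNA polymerase I components, both box H/ACA proteins and 1 of 3 box C/D proteins. The other way went 2 genes, 1 box C/D protein (0.16) and 1 large subunit factor (0.17), and neither passed. For all 3 box C/D proteins, edgeR gave an unadjusted p under 0.05. RRN3 fell by 0.34, POLR1B by 0.34 and POLR1C by 0.28 on the log2 scale. Among the genes of cytosolic ribosomal proteins 5 of 79 were lower, near the 6.83% of all genes, and 2 higher, with a median of -0.03. MYC fell from 3.84 and 3.93 CPM to 1.23 and 1.98 CPM, a log2 change of -1.29 ± 0.25. Of the ligand groups at 24 h, the mean log2 CPM of the 40 genes was 5.42 and 5.37 with EGF and 5.32 and 5.34 with HRG, above vehicle (5.28 and 5.22) and below T0 (5.52 in both libraries).

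In BT474, vehicle was lower than T0 for 9 genes at 12 h and 9 at 24 h, against 3.26% and 6.23% of all genes, with medians of -0.11 and -0.13. BYSL, UTP15, FBL and NHP2 had the largest falls at 12 h, by 0.28, 0.26, 0.25 and 0.25 on the log2 scale. Of the 79 genes of cytosolic ribosomal proteins, 43 were lower than T0 at 12 h of vehicle and 66 at 24 h. Their medians were -0.15 and -0.23, and none was higher. At 1 h NHP2, POLR1B and NOP2 fell (2.94% of all genes lower) and WDR43 rose by 0.35 ± 0.05, from 66.9 and 68.0 CPM to 86.3 and 84.8 CPM. There 923 of all 25146 genes were higher, so 1 member higher is near the background. WDR43 also rose in BT474R at 1 h of vehicle, by 0.32 ± 0.06, where 277 of 24287 genes were higher. No member fell there in edgeR or DESeq2, edgeR gave an unadjusted p under 0.05 for 4 members, and 1.1% of all genes were lower. MYC fell in BT474 by 0.59 ± 0.06 at 12 h and by 0.39 ± 0.06 at 24 h. The mean log2 CPM of the 40 genes in BT474 was 5.73 and 5.70 at T0. With EGF it was 5.82 in both libraries at 12 h, and 5.789 and 5.799 at 24 h. With HRG it was 5.91 and 5.93 at 12 h, and 5.90 and 5.92 at 24 h. These ligand libraries lay above T0, but by less than above vehicle. Ligand groups were not tested against T0.

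The counts for BT474 shrank to 3 at 12 h without either T0 library, to 2 without either vehicle library and to 5 in 1 fit of both lines, and at 24 h to 2 without T0 replicate 1, 3 without T0 replicate 2, 1 without vehicle replicate 2 and 4 with DESeq2. The 4 calls at 1 h became 2 without T0 replicate 1 and 1 without T0 replicate 2 or vehicle replicate 1, the call in BT474R at 1 h was lost without T0 replicate 2 or vehicle replicate 2, and the 27 at 24 h in BT474R became 15 without either T0 library.

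At T0 the lines differed before any ligand was given. In BT474R 24 of 40 genes were lower and 5 were higher than in BT474, with a median log2 fold change of -0.21, where 21.7% of 24641 genes were lower and 25.1% higher. NOP56 had 155 and 160 CPM in BT474 and 104 and 93.3 CPM in BT474R (-0.68 ± 0.06, adjusted p = 4.13e-12). UTP4 had 54.4 and 52.9 CPM against 34.3 and 34.5 CPM (-0.64 ± 0.06). NOP16 and NIP7, both large subunit factors, had the lowest values, each at -0.77, with 27.9 and 27.8 CPM against 16.1 and 16.5 CPM for NOP16 and 32.0 and 31.6 CPM against 17.3 and 19.9 CPM for NIP7.

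**Figure D5:**
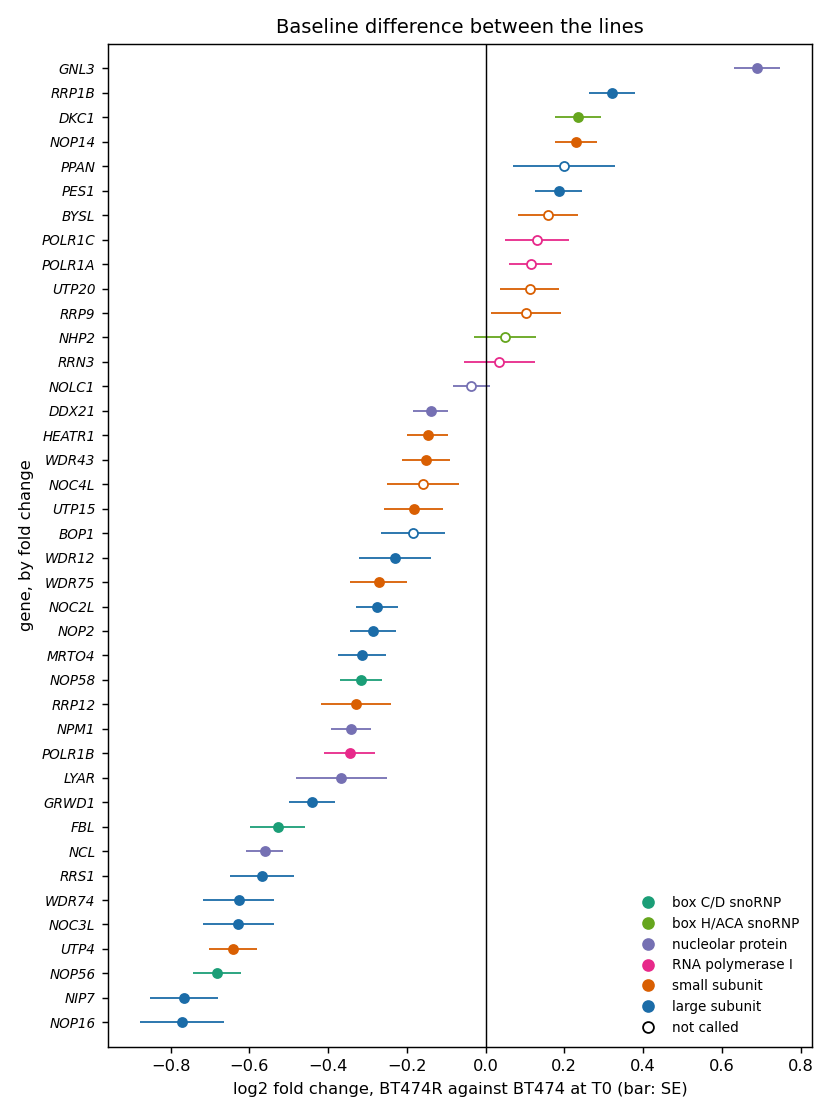
Log2 fold change of each gene in BT474R against BT474 at T0, sorted, with standard errors as bars, colours for the roles and open points for the 11 genes that did not pass the test. GNL3 stands at 0.69 and NOP16 and NIP7 at -0.77.

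GNL3 went the other way, with 127 and 121 CPM in BT474R against 78.1 and 75.9 CPM in BT474, a 1.61-fold difference (log2 0.69 ± 0.06, adjusted p = 1.18e-12). RRP1B (0.32 ± 0.06), DKC1 (0.23 ± 0.06), NOP14 (0.23 ± 0.05) and PES1 (0.19 ± 0.06) were also higher in BT474R. All 3 box C/D proteins were lower, FBL by a log2 of -0.53 and NOP58 by -0.32, as were 10 of 14 large and 6 of 11 small subunit factors. NCL had 899 and 849 CPM in BT474 and 603 and 582 CPM in BT474R (-0.56 ± 0.05), and NPM1 277 and 264 CPM against 215 and 212 CPM (-0.34). Of the RNA polymerase I components POLR1B was lower (-0.35 ± 0.07), while POLR1A (0.12), POLR1C (0.13) and RRN3 (0.03) did not pass.

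MYC had a larger difference than any of these genes, with 47.5 and 49.9 CPM in BT474 and 3.84 and 3.93 CPM in BT474R, a log2 fold change of -3.64 ± 0.12 (adjusted p = 2.66e-24). The genes of cytosolic ribosomal proteins were lower by a median of -0.61, with 72 of 79 lower and 1 higher. The part of the MYC level in either difference was not tested. In the samples as bulk RNA, fewer cells making a transcript and less of it per cell cannot be told apart.

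Other genes of the pathway were counted in lists by role. With HRG at 12 h in BT474, 22 of 47 other small subunit factors rose and 1 fell, 29 of 50 other large subunit factors rose and 2 fell, 2 of 10 other snoRNP factors rose, and 3 of 12 other RNA polymerase I genes rose and 1 fell, where 13.3% of all genes were higher and 12.5% lower. NOL6, a small subunit factor, rose by 0.64 ± 0.05, and NMD3, the export adaptor of the large subunit, by 0.75 ± 0.05. TCOF1, which supports RNA polymerase I transcription, rose by 0.45 ± 0.04, and TAF1C, a subunit of its promoter selectivity factor, fell by 0.43 ± 0.07. With HRG at 12 h in BT474R the counts were 1 of 47, 2 of 50, 0 of 10 and 1 of 12 higher, and none was lower. With 2.38% of all genes higher there, the counts for both subunits are near the background.

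Cytosolic ribosomal proteins rose in 35 of 79 cases with HRG at 12 h in BT474, with a median log2 fold change of 0.11 and 1 gene lower. At 24 h 59 rose with HRG, with a median of 0.17. With EGF 46 rose at 12 h and 52 at 24 h. Of all genes 13.3% and 12.5% were higher with HRG and 9.04% and 9.71% with EGF. These rises are against a vehicle that had itself fallen from T0. The summed CPM of these genes was 28267 and 27337 with HRG at 24 h and 30080 and 28821 at T0. In BT474R 16 and 26 rose with EGF, beside 6.85% and 9.95% of all genes, and 3 and 2 with HRG, which is near the 2.38% and 1.89% of all genes. At T0 the other small subunit factors were lower in BT474R in 25 of 47 cases and higher in 8, and the other large subunit factors were lower in 17 of 50 and higher in 12. Among all genes 21.7% were lower and 25.1% higher, so the higher share of the large subunit factors is near the background. Of the 11 genes of the MYC network, which are MYC and its family and partner genes, 2 rose and 6 fell with HRG at 12 h in BT474, MYC being among those that rose.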

How the data were processed

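Processed values were gene counts per library, which the authors made and deposited as 1 table with no normalization. Per the labels and the methods, reads came from a poly(A) mRNA kit, were trimmed with Trim Galore 0.6.6 and were assigned to genes on GRCh38.p13 with featureCounts. The annotation release, strand setting and treatment of multi-mapping reads are not given in the sources used here, so copy rows, overlapping genes and antisense genes may share reads.

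The members, the role groups and the other lists were chosen with earlier results of these data known. Each member was matched by exact name, and rows that repeat a name with a number were kept apart, with summing as an alternative. Genes with at least 1 count in 50% of the libraries of a fit were tested with edgeR 4.0.16 in R 4.3.3 (TMM, 1 coefficient per group, quasi-likelihood F test, Benjamini-Hochberg adjustment over all genes tested, threshold 0.05). Comparisons within a line used its 20 libraries, and comparisons of the lines used all 40. Log2 CPM for the mean over members used a prior count of 2. Replicates are known by number alone, so p-values rest on the spread between the 2 libraries of each group, which may be technical. That spread was pooled over the groups of a fit. Each SE is the absolute log2 fold change divided by the square root of the F statistic, so it uses the same pooled spread. With totals of 16794594 to 33387936 counts, the standard error of a ligand effect on a member had a median of 0.05 to 0.07 on the log2 scale.

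The text names MYC, the RNA polymerase I members, FBL, NCL and NPM1, and in each comparison up to 4 called members per direction with the largest change whose libraries do not overlap. From the other lists it names at most 2 per direction. Members outside that rule were chosen after their values were seen. Alternatives were DESeq2 1.42.0, its size factors in edgeR, other filters, other sets of libraries in the fit, summed copy rows, a replicate block and leaving out each library, where the fit of 40 libraries kept its dispersions. The steps were tested on simulated data. Promoter windows came from RefSeq, and 6 members without a window were left out of the motif counts.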

Additional observations from a re-analysis of the deposited data

Results flagged for a closer look

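Effects that differed between the lines by the test of the difference itself (edgeR, BT474R minus BT474, log2 scale, 2 libraries per group) are collected here as values. With HRG at 12 h they were -0.44 for UTP4, -0.38 for NOP58, -0.36 for DDX21, -0.31 for MRTO4, -0.30 for NOP56, -0.28 for NPM1, -0.28 for NOLC1 and -0.25 for NOC2L. With HRG at 24 h they were -0.41 for DDX21, -0.34 for NOP58, -0.33 for MRTO4, -0.31 for UTP4 and -0.28 for POLR1A. MYC differed by -0.85 with HRG at 1 h, 0.94 with HRG at 12 h, 1.75 with EGF at 12 h and 1.14 with EGF at 24 h. The libraries of HRG at 24 h in BT474R, on which the HRG differences at 24 h rest, were the pair with the largest spread (median chi-square per gene 2.56).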

How the results depend on the processing

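Of the 113 called values of named genes, none reversed its direction under the alternatives run. Of 257 counts of called members under the analysis alternatives, 218 stayed within 1.5 times the reported count, and of 877 repeats of those 113 values, 831 still passed. Of 508 repeats of them with a library left out, 373 still passed. The limits are the 2 libraries per group and effects mostly below 0.5 on the log2 scale.

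Libraries with the same replicate number were not treated as pairs in the main fits. The correlation of deviations from the group means between same-numbered libraries had a median of 0.02 in BT474 (-0.06 to 0.30) and -0.01 in BT474R (-0.24 to 0.42). With the replicate block, the 5 members that differed between the lines with HRG at 24 h became 8, and the other counts stayed within 1.5 times.

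With filterByExpr, the members called were 1 with HRG at 1 h in BT474 (3 reported), 2 with HRG at 12 h in BT474R (1 reported) and 2 for HRG against EGF at 24 h in each line (1 reported). With no filter they were 3 with HRG at 12 h in BT474R and 3 for HRG against EGF at 24 h in BT474. In 1 fit of both lines they were 1 with HRG at 1 h in BT474, 3 and 4 with HRG at 12 h and 24 h in BT474R, 1 for HRG against EGF at 12 h in BT474, 2 at 24 h in BT474R, 5 for vehicle against T0 at each of 12 h and 24 h in BT474, and 1 at 12 h in BT474R. With DESeq2 they were 3 and 5 with HRG at 12 h and 24 h in BT474R, 1 for the line difference under HRG at 1 h, 8 under HRG at 24 h and 1 under EGF at 24 h, 4 for HRG against EGF at 24 h in BT474, 1 at 12 h in BT474R, and 4 for vehicle against T0 at 24 h in BT474. With DESeq2's size factors in edgeR the last was 5. With copy rows summed it was 5, HRG against EGF at 24 h in BT474 gave 2 and vehicle at 1 h in BT474R gave 2.

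With only the libraries compared, which leaves 4 to 8 libraries to estimate the spread, the counts were 13 with EGF at 24 h in BT474, 21, 6 and 0 with EGF at 12 h, EGF at 24 h and HRG at 24 h in BT474R, 3, 15 and 0 for the line difference with EGF at 12 h, HRG at 12 h and HRG at 24 h, 8 and 0 for HRG against EGF at 12 h and 24 h in BT474, 0 at 24 h in BT474R, and 3 and 2 for vehicle at 1 h and 12 h in BT474R. For these changes the cause was not tested.

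Leaving out each library in turn gave these ranges. In BT474 they were 1 to 1 with EGF and 1 to 2 with HRG at 1 h, 19 to 23 and 27 to 31 at 12 h, and 13 to 20 and 26 to 32 at 24 h. In BT474R they were 0 to 0 with both ligands at 1 h, 3 to 6 with EGF and 1 to 1 with HRG at 12 h, and 5 to 11 and 0 to 6 at 24 h. The line difference at T0 gave 24 to 27. The line difference in response gave 0 to 0 with both ligands at 1 h, 0 to 0 with EGF and 3 to 6 with HRG at 12 h, and 0 to 1 and 1 to 10 at 24 h. HRG against EGF gave 0 to 1 at 12 h and 0 to 6 at 24 h in BT474, and 0 to 0 and 1 to 3 in BT474R. Vehicle against T0 gave 1 to 3, 2 to 3 and 1 to 6 for the 3 times in BT474, and 0 to 1, 0 to 0 and 15 to 20 in BT474R. The change from 12 h to 24 h gave 0 to 1 with EGF in BT474 and 0 in the other 3 cases.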
